A study of Mus musculus with 10 samples.

Results

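The genes described here are 10 that mark the endothelial cells lining lung vessels: Pecam1, Cdh5, Kdr, Tek, Tie1, Flt1, Vwf, Ednrb, Car4 and Sox17. They were chosen by name, with earlier results of these data known. DNA methylation was measured in whole lung of 10 female BALB/c mice, 8 weeks old when bought, and CpG calls had been summed in windows 1000 bp wide that start every 500 bp. A window belonged to a gene when it overlapped the gene's RefSeq span on GRCm38 extended by 5 kb on either side. Of 446336 windows, 260 met this rule and 248 had at least 20 calls in every mouse, which 421759 windows of the series had. The 3 saline mice were controls. The 3 OVA mice were sensitized by injection of 50 µg ovalbumin (OVA) with alum on days 0 and 7 and challenged intranasally with 25 µg OVA on 4 days from day 12, a model of allergic asthma. The 4 DSE mice went through the OVA procedure and also received an extract of Descurainia sophia seeds (DSE) by mouth at 200 mg/kg from day 9 to day 15. Their libraries are labelled Herb, and no other herb is described for the study. Each library is 1 mouse and holds every cell type of the lung.

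Endothelial cells form the inner wall of all blood vessels. The VEGF receptors Kdr (VEGFR2) and Flt1 (VEGFR1) and the angiopoietin receptor Tek (Tie2), with its partner Tie1, control vessel growth and stability. Pecam1 (CD31) and Cdh5 (VE-cadherin) hold neighbouring endothelial cells together, and Vwf, the von Willebrand factor, binds platelets in larger vessels. Ednrb, an endothelin receptor, and Car4, a carbonic anhydrase, mark a specialised class of lung capillary cells, and Sox17 is a transcription factor of arterial endothelium. Promoters of many tissue-restricted genes carry less CpG methylation in the cells that use them than elsewhere. In whole lung, a change in the share of a cell type and a change of methylation within its cells cannot be told apart, and RNA was not analysed here.

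Promoter sequence differed widely among the members. RefSeq promoters of 300 bases on GRCm38.p6, from 250 before to 50 after the start, were found for 6 of the 10 genes (Kdr, Tek, Tie1, Flt1, Ednrb and Car4). The 3 printed here belong to the members with the highest and the lowest promoter methylation in saline mice, Tie1 and Kdr, and to Tek, the only member whose promoter passed the test. Each is given 5′ to 3′ on the strand of the gene, with every CpG in capitals. The Tie1 promoter is chr4:118489800-118490099 on the minus strand, that of Tek is chr4:94739039-94739338 on the plus strand, and that of Kdr is chr5:75978406-75978705 on the minus strand.
Tie1: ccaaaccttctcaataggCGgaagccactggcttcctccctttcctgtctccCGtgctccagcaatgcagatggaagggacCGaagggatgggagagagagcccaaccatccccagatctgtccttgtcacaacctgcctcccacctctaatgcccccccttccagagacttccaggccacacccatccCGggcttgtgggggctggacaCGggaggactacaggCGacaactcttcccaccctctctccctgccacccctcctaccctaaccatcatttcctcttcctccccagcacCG
Tek: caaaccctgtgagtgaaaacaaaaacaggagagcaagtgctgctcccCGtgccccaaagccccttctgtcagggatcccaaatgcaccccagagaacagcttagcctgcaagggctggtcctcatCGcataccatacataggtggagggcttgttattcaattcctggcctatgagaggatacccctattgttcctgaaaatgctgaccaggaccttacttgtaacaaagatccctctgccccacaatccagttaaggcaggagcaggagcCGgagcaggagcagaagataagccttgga
Kdr: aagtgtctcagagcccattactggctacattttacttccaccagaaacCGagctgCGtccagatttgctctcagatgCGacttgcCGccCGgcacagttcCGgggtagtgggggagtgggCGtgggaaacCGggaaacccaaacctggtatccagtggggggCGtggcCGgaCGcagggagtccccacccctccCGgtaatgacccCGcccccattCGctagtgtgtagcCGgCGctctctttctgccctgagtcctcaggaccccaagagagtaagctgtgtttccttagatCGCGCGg
The Tek sequence holds 3 CpGs, an observed to expected CpG ratio of 0.149. The Tie1 sequence holds 7, with a ratio of 0.289, and the Kdr sequence 19, with a ratio of 0.689. Flt1 has 29 CpGs in the same span, Ednrb 15 and Car4 15, against a median of 7 over all 32851 promoters of the table. The letters CCGGAA, the core that ETS factors often bind, were searched on both strands. They occurred at 1 place in the Kdr promoter and at 2 in that of Car4, were absent from the other 4, and were present in 14.9% of all promoters.

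Sequences inside or behind 3 of the genes are also shown. They come from the 5 windows with the smallest limma p in any of the comparisons. Of these, the windows that overlap no exon of a curated RefSeq transcript were taken. Exons of predicted transcripts were not checked. From each window the 300 bases with the most CpGs are printed on the plus strand of GRCm38, with CpGs in capitals. The Tek stretch, chr4:94752535-94752834, lies in intron 1. The Flt1 stretch, chr5:147681200-147681499, lies in intron 6. The Cdh5 stretch, chr8:104145071-104145370, lies downstream of the gene.
Tek intron: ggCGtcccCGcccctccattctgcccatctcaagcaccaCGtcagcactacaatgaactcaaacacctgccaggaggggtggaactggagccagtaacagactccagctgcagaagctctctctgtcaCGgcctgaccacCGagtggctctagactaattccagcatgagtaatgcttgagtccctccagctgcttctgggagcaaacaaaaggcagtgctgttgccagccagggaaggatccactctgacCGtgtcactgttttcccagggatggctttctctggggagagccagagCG
Flt1 intron: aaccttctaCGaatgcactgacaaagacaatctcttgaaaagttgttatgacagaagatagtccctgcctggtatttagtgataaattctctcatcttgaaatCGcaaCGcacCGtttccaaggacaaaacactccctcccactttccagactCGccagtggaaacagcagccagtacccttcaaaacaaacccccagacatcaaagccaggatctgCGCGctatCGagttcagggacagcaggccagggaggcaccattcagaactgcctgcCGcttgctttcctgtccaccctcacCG
Cdh5 downstream: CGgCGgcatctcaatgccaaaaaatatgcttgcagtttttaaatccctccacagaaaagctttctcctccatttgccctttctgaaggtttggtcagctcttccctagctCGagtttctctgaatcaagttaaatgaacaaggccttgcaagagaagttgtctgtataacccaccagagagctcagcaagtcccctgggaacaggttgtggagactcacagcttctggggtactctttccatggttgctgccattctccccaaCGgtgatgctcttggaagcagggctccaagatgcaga
These hold 7, 10 and 4 CpGs. The whole windows hold 14, 17 and 8, beside a median of 16 over the member windows and 13 over all windows.

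Depth of the member windows was close to that of the series. Calls per mouse summed to 306656737 to 410836272 over all windows, and a member window had a median of 533.5 calls in a mouse, with a range of 20 to 6094, against 450 for all windows. Most neighbouring windows share calls, and 10 of the 248 hold exactly the calls of the window before them. The genes have 43 (Pecam1), 13 (Cdh5), 16 (Kdr), 14 (Tek), 9 (Tie1), 66 (Flt1), 56 (Vwf), 9 (Ednrb), 6 (Car4) and 16 (Sox17) windows. Pecam1, Cdh5 and Vwf have no window within 1000 bp of a start site, so their promoters were not analysed here. Some regions also overlap a neighbouring gene, such as Ano2 at Vwf, Eqtn at Tek and the predicted gene Gm35383 at Flt1. Others are Gm29682 at Cdh5, Gm32727 at Kdr, Gm12859 at Tie1 and Gm35197 at Ednrb.

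In OVA mice the regions of Tek, Tie1, Pecam1 and Kdr were more methylated than in saline mice, and single windows of Flt1 and Cdh5 were too. A window was called when the likelihood ratio test on pooled calls gave an adjusted p under 0.01 and the groups' pooled percentages differed by at least 10 points. Of the 248 member windows 31 were hypermethylated in OVA mice, which is 12.5% against 4.83% of all windows, and 0 were hypomethylated, against 2.6% of all windows. The 31 windows form 17 separate stretches. The median difference over the member windows was 1.99 points, and 0.727 points over all windows. That test reads calls and not the spread between mice, so each window was also tested over mice with limma. By limma 13 member windows were higher and 1 was lower at an adjusted p under 0.05, against 2.25% and 1.49% of all windows. An F test that scales for the spread between mice called 0 of the 248, and it called 0.0% of all windows higher. Its unadjusted p was under 0.05 in 61 of the 248. The share of all windows was not counted, so that number cannot be compared with the series. OVA and saline mice did not overlap in 79 windows that were higher in OVA mice and 11 that were lower, where 18.0% and 9.03% of all windows did. Without OVA replicate 1 the likelihood ratio test called 48 windows, and without OVA replicate 3 it called 26.

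Averaged over the 248 windows, methylation was 45.9% ± 0.966 (SD, n = 3) in saline mice, 49.3% ± 1.25 (n = 3) in OVA mice and 49.4% ± 0.826 (n = 4) in DSE mice. Over all windows of the series the means were 51.2%, 52.4% and 52.3%. The member windows were therefore lower than the series as a whole in each group, and the OVA and DSE groups lay closer together than either lay to saline.

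Each gene was next summarised as the mean percentage over all of its windows, and limma compared the mice with adjustment over 32827 genes. Between OVA and saline mice 4 of the 10 members rose and 0 fell at an adjusted p under 0.05, against 9.18% and 3.28% of all genes. At an unadjusted p under 0.05, 6 members were higher and 0 lower, against 24.1% and 7.01% of all genes. In 5 members all OVA mice were above all saline mice and in 0 below, where 26.6% and 8.3% of all genes were so separated. The median difference was 3.03 points over the members and 1.02 points over all genes. The genes that rose were Tek, Tie1, Pecam1 and Kdr, while the capillary genes Ednrb and Car4 and the arterial factor Sox17 stayed within 1.02 points of saline on average and did not pass. Leaving out saline replicate 2, OVA replicate 2 or OVA replicate 3 left 1 member called, which was Tek in each case. When calls were summed over the windows of a gene before the test, Pecam1 (adjusted p = 0.0563) and Kdr (adjusted p = 0.841) did not pass.

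**Figure D1:**
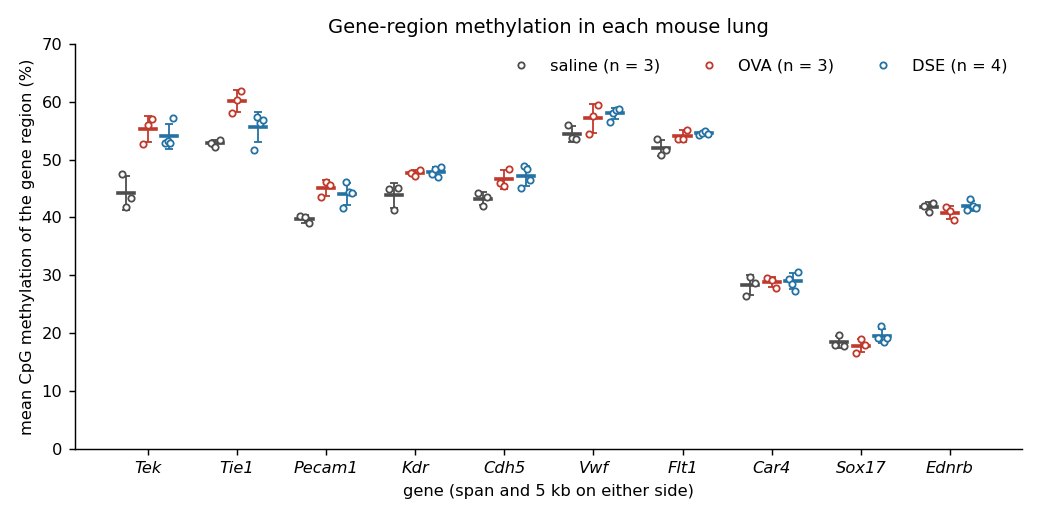
Mean CpG methylation (%) of each member's region (gene span and 5 kb on either side) in every mouse, for saline (n = 3), OVA (n = 3) and DSE (n = 4) mice. Points are mice, thick bars are group means and thin bars are 1 SD. All OVA and DSE mice lie above all saline mice for Tek, Pecam1, Kdr and Cdh5, and the groups overlap for Ednrb, Car4 and Sox17.

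Tek, the angiopoietin receptor at chr4:94739086-94874976 on the plus strand, showed the largest difference of the members. Its region was 47.5%, 41.8% and 43.3% methylated in the saline mice. The OVA mice had 52.7%, 56.0% and 57.1%, and the DSE mice had 52.9%, 53.2%, 52.8% and 57.2%. All 7 OVA-exposed mice were above all 3 saline mice. Tek rose by 11.1 points in OVA mice (SE 1.73, limma adjusted p = 0.00706) and by 9.83 points in DSE mice relative to saline (SE 1.62, adjusted p = 0.00565). Under every alternative tried for the OVA comparison its adjusted p stayed between 0.00466 and 0.0314.

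The Tek windows lay in 5 groups along the gene and all 14 were higher in OVA than in saline mice by their pooled percentage, as were 61.0% of all windows of the series. Of these 7 were called, in 2 stretches. The stretch in intron 1 holds the window chr4:94752001-94753000, with its centre 13211 bp from the start site. It was 20.1%, 16.1% and 20.4% methylated in saline mice, 31.5%, 43.6% and 39.9% in OVA mice and 39.2%, 37.6%, 32.0% and 41.0% in DSE mice. All OVA-exposed mice were above all saline mice, and the pooled difference between OVA and saline was 18.9 points (limma adjusted p = 0.0224). The other called stretch lies 87711 to 88711 bp from the start site in windows that overlap exons, with pooled differences of 14.4 to 16.7 points.

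The Tek promoter followed the gene. Its 2 windows averaged 29.1%, 22.4% and 24.5% in saline mice, 33.8%, 32.6% and 36.2% in OVA mice, and 29.2%, 30.9%, 30.6% and 35.5% in DSE mice. The OVA mice lay above all saline mice, and the lowest DSE mouse was only just above the highest saline mouse. Limma adjusted over 19140 promoters gave a rise of 8.90 points in OVA mice (SE 1.98, adjusted p = 0.0298) and of 6.24 points in DSE mice relative to saline (SE 1.86, adjusted p = 0.0432). Tek was the only one of the 7 members with promoter windows that passed, against 4.56% of promoters higher and 2.64% lower in OVA, and 14.4% higher and 3.52% lower in DSE mice relative to saline. For the 7 OVA-exposed mice Tek was again the only member called (adjusted p = 0.0173), against 11.1% and 4.11%. The OVA call was lost without saline replicate 2 or 3 or OVA replicate 2 or 3, with an adjusted p of up to 0.101. The DSE call was lost without any of saline replicates 2 and 3, OVA replicates 1 and 2 and DSE replicates 2, 3 and 4 (up to 0.155), and the call over all OVA-exposed mice without saline replicate 2 or 3 (up to 0.0822).

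Tie1, the partner of Tek at chr4:118471191-118489849 on the minus strand, also rose in OVA mice. Its region was 52.9%, 52.2% and 53.4% methylated in saline mice and 58.2%, 60.3% and 61.9% in OVA mice. The DSE mice had 51.8%, 57.4%, 56.4% and 56.8%, all below the lowest OVA mouse, with DSE replicate 1 below the saline mice. The rise in OVA mice was 7.30 points (SE 1.48, limma adjusted p = 0.0157), and it was lost without saline replicate 2 or OVA replicate 2 or 3, with an adjusted p of up to 0.061. Between DSE and saline mice the difference was 2.76 points (SE 1.38, adjusted p = 0.181). Without DSE replicate 1 it was 4.03 points and passed (adjusted p = 0.0257).

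Around the start of Tie1 a window upstream was called in OVA mice, and the windows that hold the start site were not. The window chr4:118490501-118491500, upstream of the start site, was 46.7%, 44.7% and 40.8% methylated in saline mice. It was 58.3%, 63.8% and 64.5% in OVA mice and 48.0%, 57.6%, 53.0% and 56.4% in DSE mice. OVA and saline differed by 18.0 points of pooled calls (limma adjusted p = 0.026). The window that holds the start site, chr4:118489501-118490500, had group means of 39.8% in saline, 37.4% in OVA and 34.3% in DSE mice, and its OVA and saline mice overlapped. Its 4 promoter windows together gave 40.4% ± 1.69 (SD, n = 3) in saline, 44.7% ± 3.27 (n = 3) in OVA and 39.2% ± 1.66 (n = 4) in DSE mice, and did not pass in any comparison. Without OVA replicate 1 the Tie1 promoter passed between OVA and saline mice, with a difference of 6.15 points (adjusted p = 0.0391).

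The VEGF receptor Kdr, at chr5:75932827-75979072 on the minus strand, rose by less than Tek and Tie1. Saline mice had 45.0%, 41.4% and 45.1% over its region. OVA mice had 47.6%, 47.2% and 48.2%, and DSE mice had 47.5%, 48.4%, 47.0% and 48.8%. The lowest OVA-exposed mouse was above the highest saline mouse. The rise was 3.85 points in OVA mice (SE 1.04, limma adjusted p = 0.0394) and 4.10 points in DSE mice (SE 0.975, adjusted p = 0.0198). The OVA call was close to the threshold: it was lost when any of saline replicate 2, OVA replicates 1, 2 and 3 or DSE replicates 2, 3 and 4 was left out, with an adjusted p of up to 0.119. All 3 called windows of Kdr form 1 stretch in intron 1, and the central one, chr5:75975001-75976000, was 50.3%, 44.9% and 46.0% methylated in saline mice. It was 56.4%, 59.8% and 60.8% in OVA mice and 58.6%, 60.7%, 59.6% and 63.5% in DSE mice, a pooled difference of 11.9 points between OVA and saline (limma adjusted p = 0.0398).

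The other VEGF receptor, Flt1, has the most windows of the members, at chr5:147561604-147726438 on the minus strand. Its region averaged 53.5%, 50.8% and 51.7% in saline mice, 53.5%, 53.6% and 55.2% in OVA mice, and 54.3%, 54.6%, 55.0% and 54.4% in DSE mice. OVA and saline mice overlapped, and the difference of 2.08 points did not pass (SE 0.864, limma adjusted p = 0.131). Single windows of Flt1 differed far more. Of 66 windows 9 were called higher in OVA mice, in 5 stretches spread over the gene, which is 13.6% against 4.83% of all windows. By any amount 54.5% of its windows were higher, against 61.0% of all windows. Window chr5:147634501-147635500 overlaps exon 14 of the longest transcript and an exon of the shorter curated transcript. It was 56.0%, 50.8% and 57.1% methylated in saline mice, 72.5%, 75.4% and 72.2% in OVA mice and 73.8%, 73.9%, 67.3% and 71.8% in DSE mice. OVA and saline differed by 18.1 points of pooled calls, and this window had the smallest limma p of all member windows (adjusted p = 0.0217). In intron 6, window chr5:147680501-147681500 had group means of 31.2% in saline, 47.9% in OVA and 48.6% in DSE mice, with no overlap between saline and either group (limma adjusted p = 0.0319 for OVA). Window chr5:147612001-147613000 in intron 15 went from 18.1% in saline to 36.9% in OVA and 37.5% in DSE mice (limma adjusted p = 0.0431 for OVA).

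**Figure D2:**
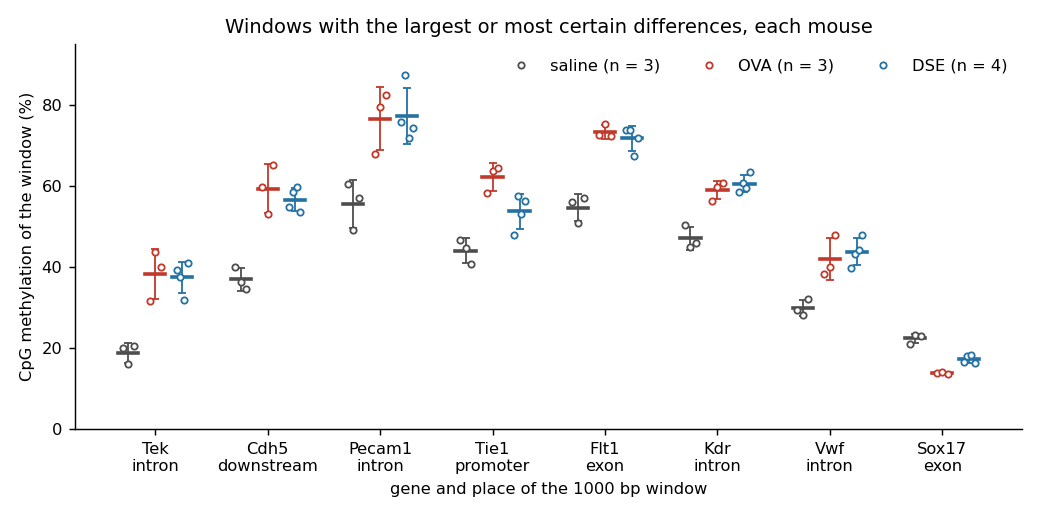
CpG methylation (%) of 8 windows of 1000 bp in every mouse, labelled by gene and place, for saline (n = 3), OVA (n = 3) and DSE (n = 4) mice. Points are mice, thick bars are means and thin bars are 1 SD. In the first 7 windows all OVA and DSE mice lie above all saline mice, and in the Sox17 exon window they lie below.

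Pecam1, the adhesion molecule at chr11:106654213-106715281 on the minus strand, rose over its region. Saline mice had 40.3%, 40.1% and 39.0%, OVA mice 43.5%, 46.2% and 45.5%, and DSE mice 41.6%, 46.2%, 44.5% and 44.2%. All OVA-exposed mice were above all saline mice. The rise was 5.28 points in OVA mice (SE 1.16, limma adjusted p = 0.0207) and 4.31 points in DSE mice (SE 1.09, adjusted p = 0.0246). The OVA call was lost without saline replicate 2 or 3 or OVA replicate 2 or 3, with an adjusted p of up to 0.0732. Of its 43 windows 7 were called, in 5 stretches (16.3% against 4.83% of all windows), and 79.1% were higher by any amount, against 61.0% of all windows. The window with the largest difference, chr11:106663501-106664500 in intron 13, had 60.6%, 49.1% and 57.0% in saline mice, 67.8%, 79.6% and 82.4% in OVA mice and 75.9%, 87.3%, 71.7% and 74.3% in DSE mice. That window rests on as few as 53 calls in a mouse, and limma gave an adjusted p of 0.0709 for OVA and 0.0394 for DSE relative to saline.

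Cdh5, the cadherin of endothelial junctions at chr8:104101613-104144504 on the plus strand, had 44.2%, 42.1% and 43.5% in saline mice, 45.9%, 45.5% and 48.5% in OVA mice and 45.1%, 48.8%, 48.3% and 46.4% in DSE mice. The saline mice were the 3 lowest of the 10. The OVA difference of 3.37 points did not pass (SE 1.19, limma adjusted p = 0.0853), and DSE mice were 3.92 points above saline (SE 1.11, adjusted p = 0.0361). Over the gene span alone the OVA difference was 5.45 points (adjusted p = 0.0418), and on M-values of summed calls the DSE difference was 0.012 (adjusted p = 0.928). Of the 13 windows 7 were higher in OVA mice by any amount, 53.8% against 61.0% of all windows. Only 1 was called, 7.69% against 4.83% of all windows. It lies outside the gene span, so the difference over the span alone does not include it. That window, chr8:104145001-104146000, lies downstream of the last exon and has as few as 55 calls in a mouse. It was 40.0%, 36.2% and 34.7% methylated in saline mice, 59.7%, 53.1% and 65.2% in OVA mice, and 54.9%, 58.4%, 59.7% and 53.5% in DSE mice. Its pooled difference of 22.4 points between OVA and saline was the largest of the member windows (limma adjusted p = 0.0223).

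Vwf, the platelet-binding factor at chr6:125552948-125686679 on the plus strand, had 56.1%, 53.8% and 53.5% in saline mice, 54.4%, 57.6% and 59.4% in OVA mice and 56.6%, 58.0%, 58.7% and 58.7% in DSE mice. OVA replicate 1 lay among the saline mice, and all DSE mice lay above them. The differences from saline of 2.68 points in OVA mice (SE 1.29, limma adjusted p = 0.184) and 3.54 points in DSE mice (SE 1.20, adjusted p = 0.064) did not pass. Without OVA replicate 1 both passed, at 4.06 points (adjusted p = 0.0402) and with an adjusted p of 0.0296, and the DSE difference also passed without OVA replicate 3 (0.0466), with a minimum of 50 calls (0.0317) and on summed calls (0.00964). In intron 10 the window chr6:125597001-125598000 was 29.3%, 28.2% and 32.1% methylated in saline mice, 38.2%, 40.0% and 47.9% in OVA mice and 39.7%, 43.2%, 44.3% and 47.8% in DSE mice. Its OVA and saline mice did not overlap, with a pooled difference of 11.8 points (limma adjusted p = 0.055). Of the 56 Vwf windows 2 were called in OVA mice, 3.57% against 4.83% of all windows. Limma called 0 Vwf windows, against 2.25% of all windows higher and 1.49% lower.

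Of the 9 windows of Ednrb, 6 of Car4 and 16 of Sox17, 0 were called by the likelihood ratio test in any of the comparisons. Of all windows 0.888% to 5.02% were called higher and 0.699% to 3.09% lower, depending on the comparison. A count of 0 among so few windows therefore does not set these genes apart. The Ednrb region, at chr14:103814615-103844508 on the minus strand, was 41.8% ± 0.785 (SD, n = 3) in saline, 40.8% ± 1.12 (n = 3) in OVA and 42.0% ± 0.838 (n = 4) in DSE mice. The Car4 region, at chr11:84957754-84966054 on the plus strand, was 28.3% ± 1.71 (n = 3), 28.8% ± 0.88 (n = 3) and 28.9% ± 1.38 (n = 4). For Sox17, at chr1:4490928-4497426 on the minus strand, the values were 18.5% ± 1.05 (n = 3), 17.9% ± 1.17 (n = 3) and 19.5% ± 1.16 (n = 4). The 3 groups overlapped for each of these genes, and the limma adjusted p for OVA was 0.438, 0.741 and 0.661.

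Sox17 nevertheless held the only member window that fell by limma. Window chr1:4490501-4491500, over exon 4 at the end of the gene, was 21.1%, 23.3% and 22.9% methylated in saline mice. The OVA mice had 13.8%, 14.0% and 13.7%, and the DSE mice had 16.5%, 18.0%, 18.2% and 16.4%. The 3 groups were fully separate, with saline highest and OVA lowest. Its pooled percentage fell by 8.56 points in OVA mice (limma adjusted p = 0.0222) and by 5.20 points in DSE mice relative to saline (limma adjusted p = 0.0464), both under the 10 points required for a call by the likelihood ratio test. DSE mice were 3.37 points above OVA mice in this window, with a limma adjusted p of 0.3. By pooled percentage 13 of the 16 Sox17 windows were higher in OVA-exposed than in saline mice, 81.2% against 62.5% of all windows. In that comparison limma called 1 of them higher and 1 lower, against 5.51% and 3.21% of all windows. The Sox17 promoter was 2.58 points above saline in DSE mice (SE 0.811, limma adjusted p = 0.0527). It passed with a minimum of 50 calls (0.047), on summed calls (0.00252) and without DSE replicate 3 (0.035).

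**Figure D3:**
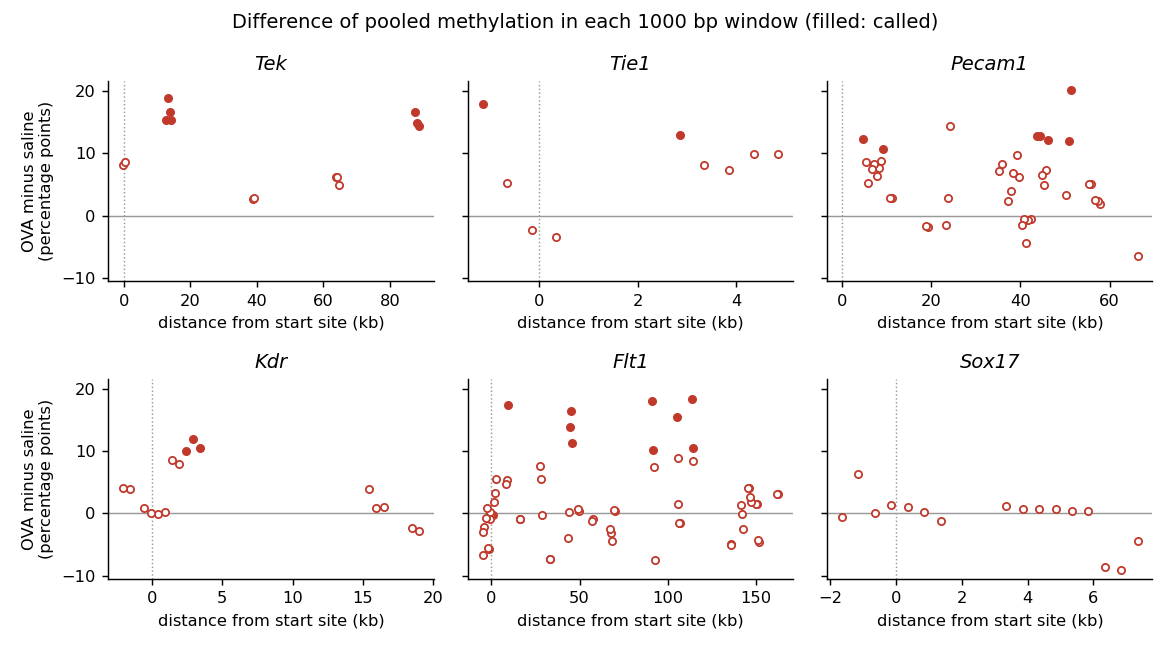
Difference of pooled methylation between OVA and saline mice (percentage points) for every window of 6 members, against the distance of the window's centre from the start site of the longest transcript (kb, along the gene). Filled points are windows called by the likelihood ratio test. The called windows of Tek, Pecam1, Kdr and Flt1 lie away from the start site, and Sox17 has none.

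By place in the gene, most called windows lay in introns, where most member windows lie; a difference between places was not tested. Of 34 windows within 1000 bp of a start site 1 was called in OVA vs. saline (2.94%), that of Tie1. Of 61 other windows that overlap an exon 8 were called (13.1%). Of 129 in introns 21 were called (16.3%), and of 24 outside the gene spans 1 (4.17%). Over all windows of the series 4.83% were called higher, and that share was not counted by place. At the start sites themselves methylation was low in Flt1, Kdr, Car4 and Sox17. The start-site window of Flt1, chr5:147725501-147726500, ranged from 1.03% to 1.79% over the 10 mice. That of Kdr, chr5:75977501-75978500, ranged from 1.59% to 3.41%, that of Car4, chr11:84957001-84958000, from 3.73% to 6.13%, and that of Sox17, chr1:4496501-4497500, from 1.45% to 3.10%. Ednrb has 2 start sites, and 2 overlapping windows hold that of its longest transcript. Of these chr14:103844001-103845000 had 12.1% to 18.8%. The other, chr14:103843501-103844500, had 1.80% to 3.60%, and only this one holds the promoter sequence with 15 CpGs (chr14:103843652-103843951). The Tek window chr4:94739001-94740000 ranged from 22.4% to 36.2%, and the Tie1 windows chr4:118489501-118490500 and chr4:118489001-118490000 from 31.6% to 42.4% and from 23.4% to 41.1%.

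The called windows were also those of intermediate methylation. Of 112 member windows between 30% and 70% in saline mice 26 were called in OVA vs. saline, against 9.05% of all windows in that band, and their median difference was 6.04 points against 2.60 points. Between 10% and 30%, 5 of 39 were called, against 10.5% of all windows. Of the 39 windows under 10% and the 58 over 70%, 0 were called, against 0.383% and 0.507% of all windows. The share of called member windows thus stood furthest above the background in the middle band.

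**Figure D4:**
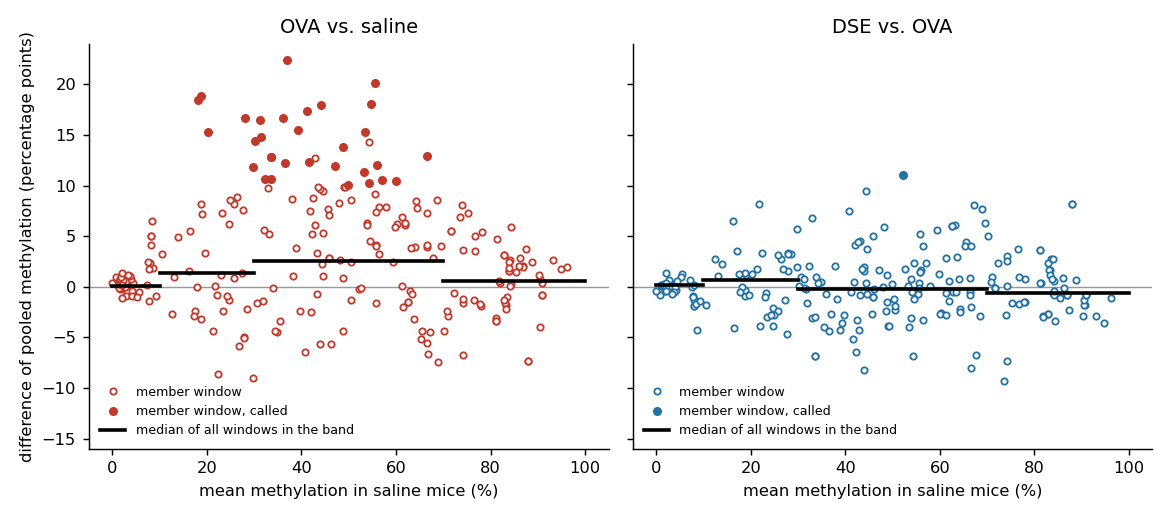
Difference of pooled methylation (percentage points) for the 248 member windows against their mean methylation in saline mice (%), for OVA vs. saline (left) and DSE vs. OVA (right). Filled points are windows called by the likelihood ratio test and black lines are the medians of all windows in bands of the saline level. On the left 26 of the 31 called windows lie between 30% and 70%, and on the right 1 window is called.

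Between DSE and OVA mice few member values differed. Of the 248 windows 1 was hypermethylated in DSE mice, 0.403% against 0.888% of all windows, and 0 were hypomethylated, against 0.699%. The window, chr5:147697001-147698000 in intron 3 of Flt1, was 57.3%, 49.4% and 58.1% methylated in OVA mice and 64.8%, 70.5%, 60.7% and 68.0% in DSE mice. The saline mice had 56.1%, 40.0% and 60.5%, and overlapped with the OVA mice. OVA and DSE mice did not overlap, the pooled difference was 11.1 points, and limma gave an adjusted p of 0.462. Limma called 0 member windows, against 0.347% of all windows higher and 0.0711% lower, with an unadjusted p under 0.05 in 7 that were higher and 9 that were lower, where 5.61% and 4.26% of all windows have one. The median difference over the member windows was -0.0443 points.

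None of the 10 gene regions passed limma between DSE and OVA mice, where 0.0274% of all genes were called higher and 0.0% lower. The unadjusted p was under 0.05 for 0 members in the upward and 1 in the downward direction, against 5.08% and 4.06% of all genes. That member was Tie1, with a difference of -4.55 points between DSE and OVA mice (SE 1.38, adjusted p = 0.3). Its 4 DSE mice lay below its 3 OVA mice, an exact permutation p of 0.057, two-sided, which is the smallest that 3 mice against 4 can give. All 9 Tie1 windows were lower by their pooled percentage, with differences of -8.24 to -1.58 points, where 50.8% of all windows were lower. For the Tek and Pecam1 regions the differences were -1.24 and -0.967 points, with an adjusted p of 0.895 and 0.869. Promoters of 0 members passed, against 2.67% of all promoters higher and 0.157% lower, and the unadjusted p was under 0.05 for Ednrb (difference 1.61 points) and Tie1 (-5.50 points), against 13.4% of all promoters higher and 2.37% lower.

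A fit that changed both the weighting and the scale gave another outcome. When the calls of a gene were summed over its windows and limma was run on M-values (the log2 ratio of methylated to unmethylated calls), 5 members passed between DSE and OVA mice, with Kdr, Ednrb, Car4 and Sox17 higher and Tie1 lower. In that fit 22.1% of all genes were called higher, and the median over all genes shifted by 0.107 on the log2 scale. The share of member calls that fell in windows under 10% methylation in saline mice was 38.5% to 40.2% in OVA mice, 34.1% to 35.8% in DSE mice and 36.2% to 37.2% in saline mice. Its part in these calls was not tested.

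Relative to saline, the regions of Tek, Pecam1 and Kdr were called in DSE mice as they were in OVA mice. Cdh5 was called in DSE mice, and Tie1 was not unless DSE replicate 1 was left out. Since both comparisons use the same saline mice, they are given side by side and not as 2 pieces of evidence. Of the 248 windows 32 were hypermethylated in DSE mice, 12.9% against 5.02% of all windows, and 0 were hypomethylated, against 3.09%. Limma called 20 windows higher and 1 lower, against 4.58% and 2.68%. Of the gene regions Tek, Pecam1, Kdr and Cdh5 rose in DSE mice, 4 of 10 against 14.3% of all genes, and 0 fell, against 4.47%. Flt1 was 2.53 points above saline (SE 0.808, adjusted p = 0.053). Without saline replicate 2, DSE replicate 2 or DSE replicate 4 only Tek of the members remained called, and without saline replicate 3 or DSE replicate 3 there were 2. Pecam1 and Cdh5 each lost the call when any saline mouse or any of DSE replicates 2, 3 and 4 was left out, and Kdr without saline replicate 2, DSE replicate 2 or DSE replicate 4.

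With the 7 OVA-exposed mice set against saline, 6 of 10 gene regions rose and 0 fell, against 17.1% and 5.04% of all genes. These were Tek, Pecam1, Kdr, Cdh5, Tie1 and Flt1. The call of Flt1 was lost under 10 of 14 alternatives (adjusted p up to 0.2), among them the omission of any single one of saline replicates 2 and 3, OVA replicates 2 and 3 and the 4 DSE mice. Cdh5 lost its call under 6, among them the omission of any single saline mouse or of OVA replicate 3 (up to 0.907, on summed calls), Tie1 under 3 (up to 0.0813) and Kdr under 2 (up to 0.0918). For Tek, Pecam1, Kdr and Cdh5 all 7 mice lay above the 3 saline mice, with an exact permutation p of 0.0167, two-sided, the smallest that this design can give, where 16.5% of all genes were so separated. For Flt1 and Vwf the exact p was 0.0333, and the limma adjusted p was 0.047 and 0.0642. In the windows, 29 of 248 were hypermethylated (11.7% against 4.63%) and 0 hypomethylated (against 2.79%), while limma called 30 higher and 1 lower (against 5.51% and 3.21%). Without saline replicate 2 the called gene regions were 2, Tek and Pecam1, which were called whichever mouse was left out.

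Other genes of the vessel wall and of vessel growth were examined as a list of 36 genes. In OVA mice 9 of their regions rose and 1 fell, against 9.18% and 3.28% of all genes, with a median difference of 2.10 points. Cldn5, a tight-junction protein, rose from 25.8% ± 1.15 (SD, n = 3) in saline to 33.3% ± 1.5 (n = 3) in OVA mice, with 33.0% ± 0.778 (n = 4) in DSE mice (limma adjusted p = 0.0048 for OVA). The receptor Aplnr rose from 41.7% ± 4.77 (n = 3) to 56.3% ± 3.20 (n = 3), with 52.1% ± 6.38 (n = 4) in DSE mice. Its 4 windows all lie at the promoter, so its region and promoter values are the same. The transcription factors Sox18, Gata2 and Tal1, the TGF-beta co-receptor Eng, the adhesion molecule Icam2, the phosphatase Ptprb, which acts on Tek, and Plvap, a protein of endothelial fenestrae, rose as well. Vegfc, the lymphatic growth factor, fell by 3.33 points. At promoters Gata2, Nos3, Cldn5, Ptprb, Notch4 and Aplnr rose in OVA mice and 0 of 33 fell, against 4.56% and 2.64% of all promoters. Notch4, a receptor of arterial endothelium, went from 28.8% ± 3.20 (n = 3) to 41.7% ± 2.54 (n = 3) at its promoter. Between DSE and OVA mice 0 regions of the list passed, against 0.0274% of all genes higher and 0.0% lower. The unadjusted p was under 0.05 in 1 region that was higher and 2 that were lower, against 5.08% and 4.06%. Promoters of 0 genes of the list passed, against 2.67% of all promoters higher and 0.157% lower. Their unadjusted p was under 0.05 in 3 that were higher and 1 that was lower, against 13.4% and 2.37%.

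Genes that mark other lung cell types were examined in the same way. Of the leukocyte list 13 of 14 genes had a region with enough windows. In OVA mice 0 of these rose and 4 fell (Ptprc, Lcp1, Laptm5 and Cd52), against 9.18% and 3.28% of all genes. By any amount 12 were lower, against 30.8% of all genes, and the median difference was -1.73 points. The mean over the leukocyte regions was 50.3% to 52.1% in saline, 47.7% to 48.2% in OVA and 47.8% to 49.6% in DSE mice, and over the 10 members 41.2% to 42.6%, 44.4% to 46.1% and 43.9% to 46.0%. Every OVA-exposed mouse was thus below every saline mouse in the leukocyte mean and above in the mean of the members. The means of the other endothelial, epithelial and mesenchymal lists, and of all windows of the series (50.9% to 51.5% in saline and 51.7% to 52.8% in OVA-exposed mice), were above saline in the same way. The promoter of Ptprc, the pan-leukocyte antigen CD45, fell from 64.7% ± 3.67 (n = 3) in saline to 46.6% ± 2.04 (n = 3) in OVA and 45.4% ± 2.82 (n = 4) in DSE mice (limma adjusted p = 0.0042 for OVA), and the promoters of Itgb2, Spi1 and Laptm5 fell with it. Regions of alveolar and airway epithelium rose in 3 of 9 genes with a value and fell in 0, against 9.18% and 3.28% of all genes. Their median difference was 1.25 points. Of 8 mesenchymal genes 1 rose and 1 fell, beside the same shares of all genes, with a median of 1.73 points. The part that the makeup of the tissue has in the members' differences was not tested.

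**Figure D5:**
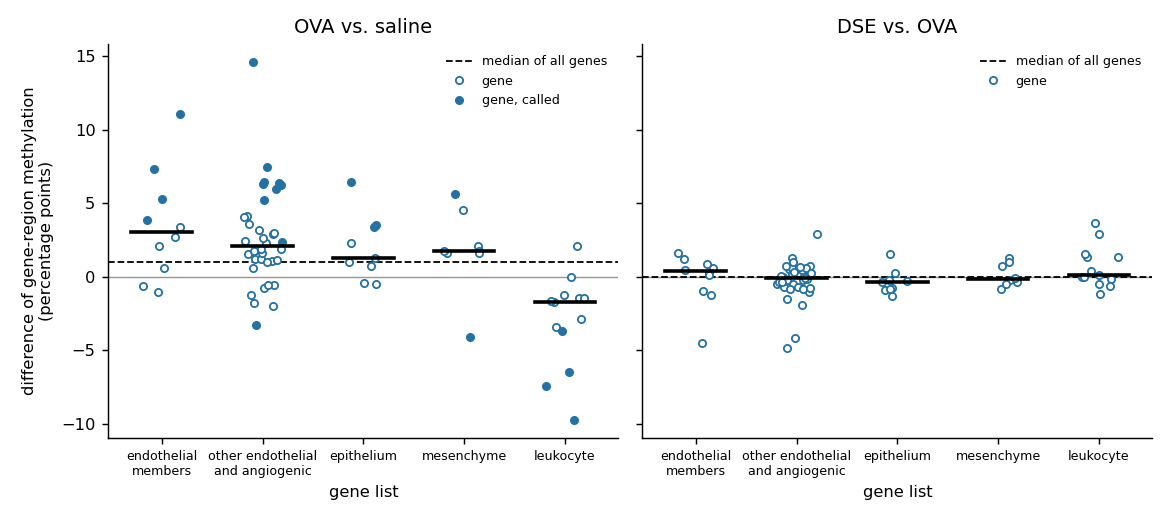
Difference of gene-region methylation (percentage points) for each gene of 5 lists, for OVA vs. saline (left) and DSE vs. OVA (right). Points are genes, filled where limma gave an adjusted p under 0.05. Thick lines are list medians and the dashed line is the median of all genes. On the left 4 endothelial members are filled above 0 and 4 leukocyte genes below 0, and on the right no gene is filled.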

How the data were processed

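Methyl-seq of whole-lung DNA was available for 3 saline, 3 OVA and 4 DSE mice. Per the labels and the study's methods, DNA was captured with SureSelect Methyl-Seq, converted with bisulfite and sequenced in paired reads of 101 cycles. The authors trimmed with Cutadapt, mapped to mm10 (GRCm38) with Bismark and summed CpG calls with methylKit. The labels give versions 1.10, 0.19.0 and 1.0.0, and the methods 1.13, 0.17.0 and 1.6.0. The deposited values are counts of methylated and all CpG calls per window, not normalized.

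Percentages were 100 times methylated over all calls, for windows with at least 20 calls in every mouse (24577 fell short). Windows were tested with a logistic likelihood ratio test and with limma 3.58.1 (R 4.3.3) on M-values (methylated over unmethylated calls, each with a pseudocount of 1, on the log2 scale). Gene regions (at least 3 windows) and promoters (1000 bp on either side of a start site) were tested with limma with a variance trend on unweighted mean percentages of all 10 mice, with OVA-exposed as the mean of the OVA and DSE groups. Adjusted p-values are Benjamini-Hochberg values over all windows, genes or promoters. Scripts used Python 3.11.15, numpy 2.4.6, scipy 1.17.1 and pandas 2.3.3, and were tested on simulated data. Calls of 1 molecule are not independent, which the likelihood ratio test does not model. The labels do not say more about the mice, so p-values measure the spread between these samples.

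The mean chi-square of calls between mice of a group was 2.64 to 3.76, more than counting error alone gives, so every library counted as its own mouse. Same-numbered mice of different groups did not deviate together (correlations -0.0273 to 0.0785), so numbers were not used as pairs. The members and gene lists were chosen with earlier results of these data known. Named windows are those at the start site of the longest transcript, the called window with the largest difference per gene and comparison, and the 5 with the smallest limma p. Of the other endothelial genes, those called are named. Alternatives were a minimum of 50 calls or none, at least 20 calls in at least 2 mice of each group, an F test, limma, a replicate block, windows without overlap, a difference of 20 points, gene spans without flanks, promoters of 2000 bp upstream to 500 bp downstream, summed calls, and each mouse left out in turn. RNA was not used here.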

Additional observations from a re-analysis of the deposited data

Results flagged for a closer look

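Of 42 member values tested in the 4 DSE mice (gene regions, promoters and named windows), 2 had a mouse far from the other 3, where chance flags about 1 in 20. In the Tek region DSE replicate 4 was at 57.2% and the others at 52.8% to 53.2%. In the start-site window of Ednrb, chr14:103844001-103845000, DSE replicate 3 was at 14.9% and the others at 18.2% to 18.8%.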

How the results depend on the processing

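The counts of called windows in the comparisons with saline stayed within 1.5 times under a minimum of 50 calls, no minimum, the rule of 2 mice per group, the replicate block and gene spans alone. The F test called 0 member windows in each of the comparisons. Of all windows it called 0.185% higher in OVA-exposed vs. saline and 0.0% in the others. A difference of 20 points left 2, 0, 1 and 2 windows (OVA vs. saline, DSE vs. OVA, DSE vs. saline, OVA-exposed vs. saline). Windows that do not overlap gave 14 of 116, 16 and 14 in the comparisons with saline, fewer by construction. Limma gave 14, 0 and 21 windows in the first 3 of them. With no minimum DSE vs. OVA had 2. Leaving out 1 mouse gave 26 to 48, 0 to 2, 30 to 38 and 26 to 36 windows.

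Gene regions called ranged from 1 to 4, 0 to 0, 1 to 5 and 2 to 7 with 1 mouse left out, and promoters from 0 to 2, 0 to 0, 0 to 1 and 0 to 1. On M-values of summed calls 2 gene regions were called for OVA mice and 3 for OVA-exposed mice against saline, and 5 between DSE and OVA mice, where 5.94%, 13.0% and 22.1% of all genes were called higher. For DSE 3 promoters passed against OVA mice and 4 against saline mice, where 23.9% and 26.0% of all promoters were called higher. The promoter of Kdr reversed there: DSE minus OVA was -0.546 points by means and 0.666 on the log2 scale by summed calls (adjusted p = 0.00277), with a shift of 0.189 over all promoters. A minimum of 50 calls gave 2 promoters in DSE vs. saline. With the replicate block DSE vs. saline had 1 gene region and 0 promoters, and the block moved no other count by over 1.5 times. Same-numbered mice did not deviate together. Tek kept its gene-region call in the comparisons with saline under all 14 alternatives each. Of the single values, 1 reversed. Calls numbered 20 to 6094 per member window, and windows near the minimum limit the precision.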
